A study of Homo sapiens with 3 samples.

Results

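Chromosome 1 of the human genome carries genes for U1 small nuclear RNA, groups of tRNA genes and the 5S ribosomal RNA array, and the peaks described here are those that 2 ChIP-seq lists place in 4 intervals around them. A peak was taken as a member when its midpoint (hg19) lay on chromosome 1 in one of these intervals, whatever its width or enrichment. The first runs from 16000000 up to 17500000 (1.5 Mb, U1 and tRNA genes, here the short-arm U1 and tRNA interval). The second runs from 143000000 up to 149650000 (6.65 Mb, U1 genes, tRNA genes and segmental duplications, here the duplicated interval). The third interval runs from 161300000 up to 161700000 (0.4 Mb, here the long-arm tRNA interval), and the fourth from 228680000 up to 228900000 (0.22 Mb, the 5S interval). Together they held 332 of 19529 peaks: 216 of 14365 peaks of codanin-1 (1.50% of the list) and 116 of 5164 peaks of GATA1 (2.25%).

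All libraries came from K562, an established erythroleukaemia cell line, grown without any treatment named in the labels. One library was precipitated with Cod1, a homemade antibody against residues 123 to 142 of codanin-1, and one with the N6 antibody against GATA1. Another used rabbit IgG as a control, and no peak list of it was among the data used here. With 1 library per antibody there is no replicate error, and no p-value is given. Intervals beside counts, shares and medians are at the 95% level and cover counting error only, with neighbouring peaks treated as if independent.

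U1 small nuclear RNA is the part of the spliceosome that pairs with the start of an intron, and its genes are transcribed by RNA polymerase II. Transfer RNAs carry amino acids to the ribosome, and 5S RNA is part of the large ribosomal subunit. Both are made by RNA polymerase III from short genes with promoters inside the transcribed part. All of these genes exist in many near-identical copies, and the 5S copies stand in a tandem array. Codanin-1, the product of the gene mutated in congenital dyserythropoietic anaemia type I, binds the histone chaperone ASF1, which carries newly made histones. GATA1 is a zinc finger transcription factor needed for red cell and megakaryocyte development.

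The RefSeq gene table supplied is of another build (GRCh38.p14), so it served for names and gene order only. Peaks were not matched to genes, and no sequence under a peak is printed, because no genome of the hg19 build was used. The intervals' labels therefore rest on position, and whether a given peak lies on a U1, tRNA or 5S gene was not tested. On chromosome 1 that table names 4 U1 genes with RNU1 symbols that are not pseudogenes, 17 variant U1 genes (RNVU1), 84 tRNA genes, 17 RNA5S genes and 14 NBPF genes, a family spread by the duplications of this chromosome. Among these families, the short-arm genes stand in a mirrored order. RNU1-1, TRN-GTT5-1, RNU1-6P, TRE-TTC4-1, TRG-CCC1-1 and TRV-CAC11-1 come before NBPF1, and TRV-CAC11-2, TRG-CCC1-2, TRE-TTC3-1, RNU1-5P, TRN-GTT4-1 and RNU1-2 close the group. On the long arm, glutamate, glycine, aspartate and leucine tRNA genes (TRE-CTC, TRG-TCC, TRD-GTC, TRL-CAG) follow each other in this order 4 times among the 19 tRNA genes from TRE-CTC1-2 to TRL-CAG1-5, with a glycine gene of the TRG-GCC kind between the repeats.

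Peak density, each interval taken whole, stood above the list mean in all 4 intervals, and as called peaks were densest in the 5S interval. It held 25 codanin-1 peaks and 25 GATA1 peaks in 0.22 Mb, or 114 per Mb in each list. The mean over nuclear chromosomes was 4.65 codanin-1 and 1.67 GATA1 peaks per Mb. Relative to its own list's mean, codanin-1 density was 24.4 times the mean in the 5S interval (interval 15.8 to 36.1). It was 12.3 times in the short-arm U1 and tRNA interval (9.86 to 15.2), 4.84 times in the long-arm tRNA interval (2.21 to 9.19) and 3.11 times in the duplicated interval (2.52 to 3.79). GATA1 density was 68.1 times its mean in the 5S interval (44.0 to 100), 25.5 times in the long-arm tRNA interval (14.8 to 40.8), 20.0 times in the short-arm interval (14.8 to 26.3) and 2.16 times in the duplicated interval (1.38 to 3.22). For codanin-1 the long-arm tRNA and duplicated intervals did not differ beyond counting error. For GATA1 neither did the long-arm tRNA and short-arm intervals, while the range of the 5S interval (from 44.0) began just above that of the long-arm tRNA interval (to 40.8). For codanin-1 the 5S range (from 15.8) likewise began just above that of the short-arm interval (to 15.2). The order of the intervals depends on how peaks are counted. Merged within 1 kb, codanin-1 stood at 12.4 times in the 5S and 11.5 times in the short-arm interval. Without the fullest 50 kb of each interval, it stood at 7.59 times in the 5S and 10.5 times in the short-arm interval. With GATA1 peaks merged within 1 kb, the 5S interval stood at 3.47 times the mean, below the long-arm tRNA (22.9) and short-arm (17.3) intervals. With −log10 q from 2 upward, codanin-1 stood at 4.27 times in the 5S interval (1 peak), below the short-arm (17.5) and long-arm tRNA (4.70) intervals. The rest of chromosome 1 stood at 2.07 times (codanin-1) and 1.43 times (GATA1) the list means. The GATA1 range of the duplicated interval (1.38 to 3.22) contains that 1.43.

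**Figure D1:**
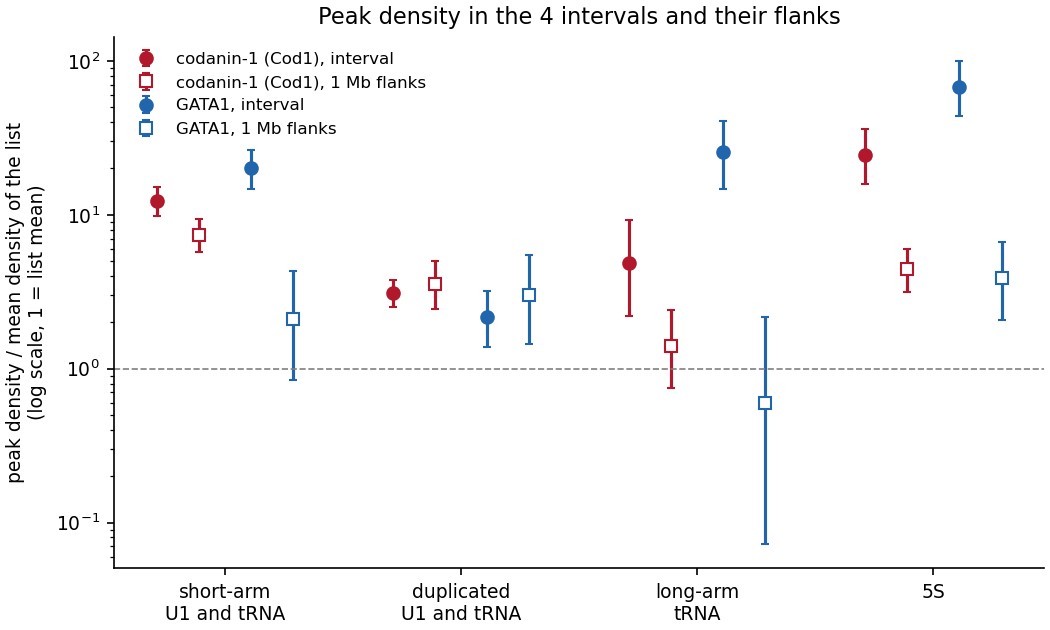
Peak density in each interval (filled circles) and in the 1 Mb on either side of it (open squares), as a multiple of the mean density of the same list on a log axis, with exact Poisson 95% bars. The GATA1 value of the 5S interval, 68.1, is the highest, while in the duplicated interval both lists lie near the values of their flanks.

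The surroundings were sparser than the interval for 3 of the 4 intervals. In the 1 Mb on either side of the 5S interval, codanin-1 density was 4.41 times the mean (3.16 to 5.98) and GATA1 density 3.89 times (2.07 to 6.66). Around the long-arm tRNA interval the values were 1.40 (0.745 to 2.39) and 0.599 (0.0725 to 2.16), the latter from 2 GATA1 peaks, and for codanin-1 the ranges of flanks and interval overlapped. Around the short-arm interval codanin-1 stayed at 7.42 times its mean (5.77 to 9.39), whereas GATA1 had 7 peaks and 2.10 times (0.843 to 4.32). Around the duplicated interval the values were 3.55 (2.44 to 4.98) and 2.99 (1.44 to 5.51), so this interval was no denser than its flanks in either list.

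The balance of the lists differed between intervals. Over the whole series codanin-1 supplied 73.6% of all peaks, or 2.78 for each GATA1 peak. It supplied 80.0% in the duplicated interval (96 against 24, exact binomial interval 71.7 to 86.7), 63.2% in the short-arm interval (86 against 50, 54.5 to 71.3), 50% in the 5S interval (25 against 25, 35.5 to 64.5) and 34.6% in the long-arm tRNA interval (9 against 17, 17.2 to 55.7). The range of the duplicated interval contains the 73.6% of the whole series. As called, the long-arm tRNA interval is the one where the GATA1 list, though the shorter list, had more peaks, but its range contains 50%. The balance depends on how peaks are counted. Merging within 1 kb left 12 codanin-1 against 1 GATA1 region in the 5S interval, and 9 against 12 in the long-arm tRNA interval. With −log10 q from 2 upward the counts were 1 against 21 and 2 against 2. The short-arm and duplicated intervals kept more codanin-1 peaks under both settings, as did the whole lists. Those had 13636 codanin-1 against 4054 GATA1 regions after merging, and 3287 against 1395 peaks with −log10 q from 2 upward. The depth of both libraries is unknown, so the ratio does not rank the antibodies by binding.

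**Figure D2:**
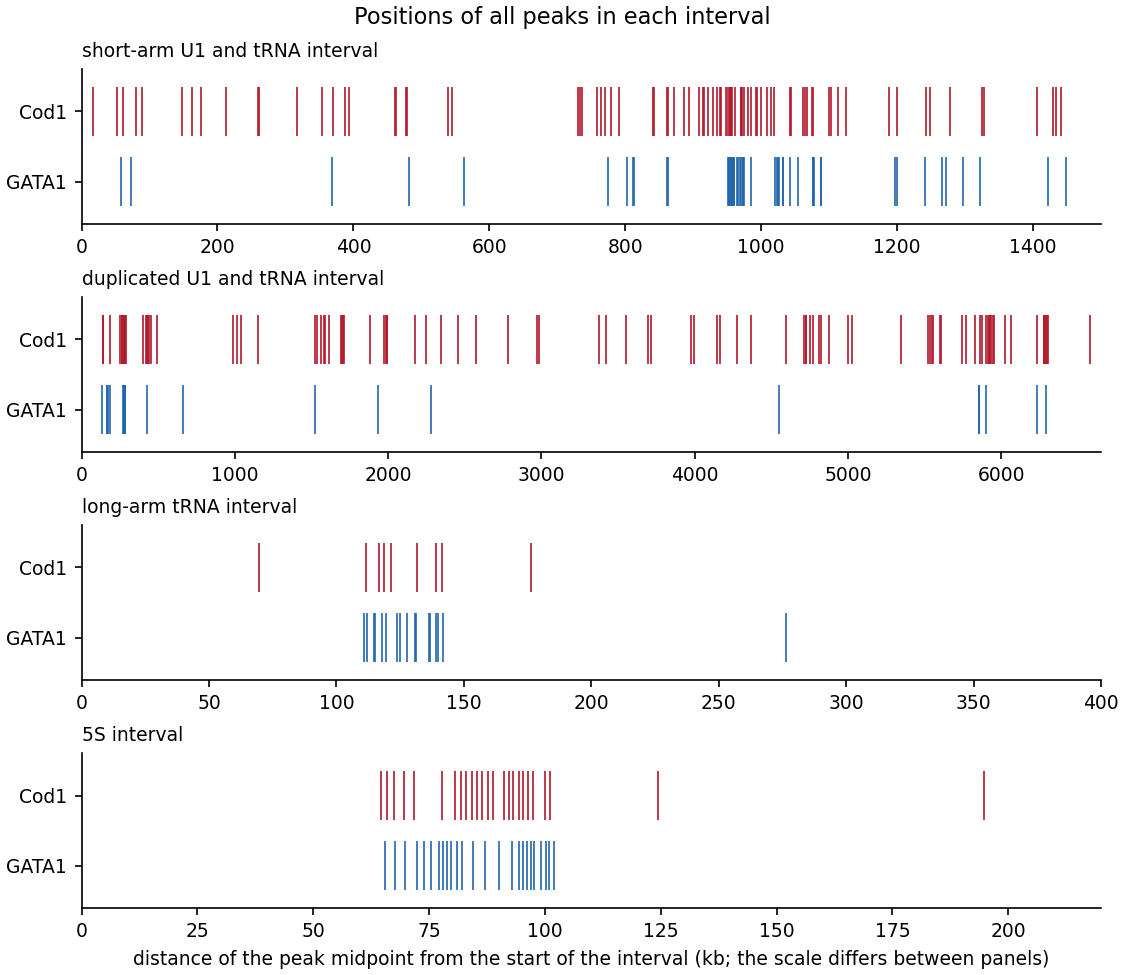
Every peak of the 4 intervals as a line at its midpoint, in kb from the start of the interval, with codanin-1 (Cod1) above GATA1; each panel has its own scale. In the 5S and long-arm tRNA intervals 48 of 50 and 23 of 26 peaks stand in 1 cluster each, while codanin-1 peaks are strewn along the duplicated interval.

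Within the 5S interval nearly all peaks formed a single block. Peaks of either list no more than 10 kb apart were joined into clusters, a rule chosen after seeing the data. The largest cluster ran from chr1:228744134-228782433, a stretch of 38.3 kb that held all 25 GATA1 peaks and, of 25 codanin-1 peaks, 23. GATA1 peaks covered 29338 bp, or 76.6% of it, and codanin-1 peaks covered 8357 bp, or 21.8%. Neighbouring GATA1 peaks were separated by 241 to 735 bp (median 293.5), so they read as 1 nearly unbroken block. Merging GATA1 peaks within 1 kb left 1 region. Gaps between neighbouring codanin-1 peaks ranged from 448 to 5845 bp (median 872). No other 50 kb bin of the nuclear genome had more bases under GATA1 peaks than the bin from 228750001 to 228800000, which had 22997 (each peak counted in the bin of its midpoint). For codanin-1 the same bin had 6741 bp, and 31 of 9101 occupied bins had more. By number of peaks, the measure used for bins of other intervals below, it had 22 GATA1 and 19 codanin-1 peaks. On that count 18 bins had more GATA1 peaks and 12 had more codanin-1 peaks. By bases under GATA1 peaks, 46 bins exceeded the fullest bin of the long-arm tRNA interval and 41 that of the short-arm interval.

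GATA1 peaks of the 5S cluster included some of the widest of their list, beside narrow ones. Their median width was 991 bp (interval 489 to 1481), against 167.5 bp over the nuclear list, and they ranged from 60 to 4006 bp. A width of at least 1 kb was reached by 12 of 25, against 2.46% of all GATA1 peaks. The widest, chr1:228768033-228772038 at 4006 bp, was exceeded only by 3 peaks on the mitochondrial genome, and a second of 3177 bp at chr1:228762802-228765978 was also among the 10 widest. Their enrichment was modest: the authors' deposited fold enrichment, each peak over the background used by the caller, ran from 3.31 to 4.17 with a median of 3.65, which exceeds only 10.7% of the list. The deposited −log10 q nevertheless had a median of 2.48, against 1.61 for the list. Of these peaks 21 of 25 passed a −log10 q of 2, against 27.0% of the list. The highest fold and the highest −log10 q (4.17 and 3.55) belonged to the same peak, chr1:228775709-228776742, which was 1034 bp wide.

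The codanin-1 peaks of the 5S cluster were of ordinary width and low fold. Their widths ran from 101 to 885 bp with a median of 306 bp, and the median for the interval was 282 bp (220 to 415) against 220 bp for the list. Fold enrichment in the cluster ran from 2.63 to 3.39 with a median of 2.96. A fold under 3 was found in 16 of the interval's 25 codanin-1 peaks, against 1.75% of the list. The 2 codanin-1 peaks outside the cluster, chr1:228804274-228804555 and chr1:228874627-228874766, had the highest folds of the interval, 4.03 and 4.32. Thus all 23 peaks of the cluster lay below both peaks beside it. Only 1 of 25 codanin-1 peaks had a −log10 q of at least 2, against 22.9% of the list, and it was chr1:228780900-228781120 with 2.10. The widest, chr1:228767210-228768094 at 885 bp, had a fold of 2.90.

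**Figure D3:**
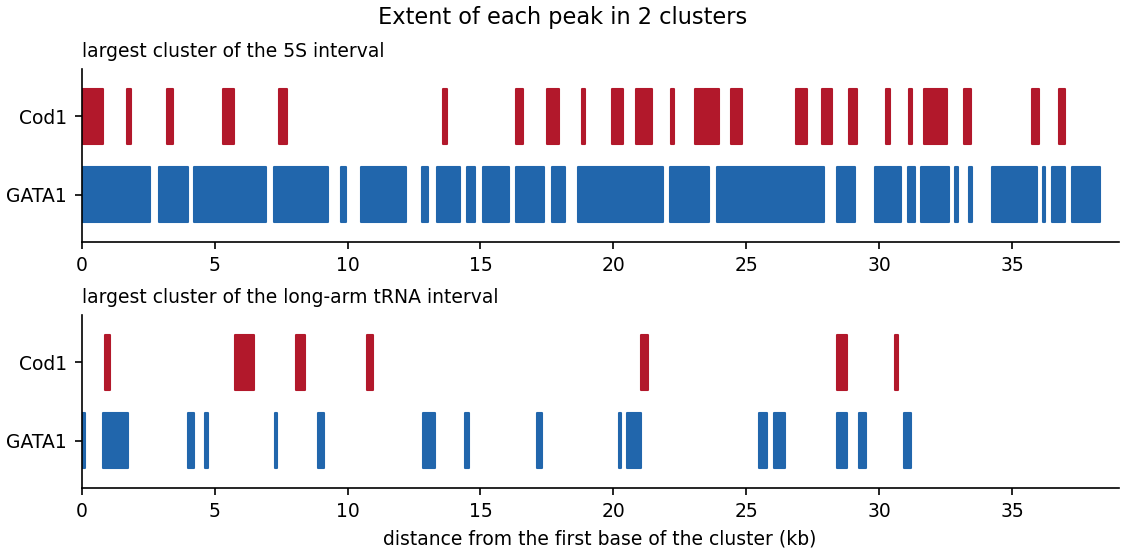
Extent of every peak in the largest cluster of the 5S interval (top) and of the long-arm tRNA interval (bottom), in kb from the first base of the cluster. In the 5S cluster GATA1 blocks fill 76.6% of 38.3 kb, and in the tRNA cluster 15.2% of 31.2 kb.

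Overlap of the lists was high in the 5S interval. With at least 1 bp counted as overlap, 23 of its 25 codanin-1 peaks met a GATA1 peak (92.0%, Clopper-Pearson interval 74.0 to 99.0), against 6.60% of the whole codanin-1 list. Of its 25 GATA1 peaks 17 met a codanin-1 peak (68.0%, 46.5 to 85.1), against 20.2% of the GATA1 list. With −log10 q from 2 upward in both lists the contrast for GATA1 turned, with 1 of 21 peaks (4.76%) in the interval against 16.1% of the list, as 1 codanin-1 peak was left there. When the overlap had to cover 0.5 of both lengths, 12.0% of the peaks of each list were shared in the interval, against 2.07% of the codanin-1 and 5.77% of the GATA1 list. All 23 codanin-1 peaks of the cluster overlapped, and 17 of the interval's 25 lay wholly inside a GATA1 peak. Of the bases under codanin-1 peaks in the cluster 86.4% were also under a GATA1 peak, beside a GATA1 coverage of 76.6% of the cluster. The part that this coverage has in the overlap was not tested. The shared site with the highest codanin-1 fold stood at the start of the cluster, where chr1:228744148-228744953 (3.39-fold) lay in the GATA1 peak chr1:228744134-228746708 (3.82-fold). Next came chr1:228764076-228764509 (3.15-fold) within chr1:228762802-228765978 (3.99-fold for GATA1), and chr1:228775826-228776660 (3.14-fold) within chr1:228775709-228776742 (4.17-fold for GATA1). The 8 GATA1 peaks that met no codanin-1 peak lay 147 to 2020 bp from one. With overlaps counted, 92.0% of the interval's GATA1 peaks lay within 1 kb of one, against 35.7% of the list. In the flanks of the 5S interval 0 of 41 codanin-1 peaks overlapped, which allows a share of up to 7.32%, and 0 of 13 GATA1 peaks, which allows up to 23.1%.

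The long-arm tRNA interval also had a single compact cluster, but there the lists interleaved. The cluster chr1:161410626-161441815 spanned 31.2 kb and held 16 of 17 peaks of GATA1 and 7 of 9 of codanin-1. GATA1 peaks covered 15.2% of it and codanin-1 peaks 7.07%. Gaps between neighbouring GATA1 peaks ranged from 244 to 4409 bp. The 50 kb bin that contains it, from 161400001 to 161450000, had 16 GATA1 peaks, and 39 of 2651 occupied bins of that list had more. For codanin-1 the bin had 7 peaks, and 108 of 9101 bins had more.

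All 9 codanin-1 peaks of this interval can be given in order. The first, chr1:161369303-161369613, stood apart upstream with a fold of 3.68. The cluster opened with chr1:161411497-161411682, which had the highest fold (4.12) and the highest −log10 q (2.54) of the interval. It was followed by the widest, chr1:161416395-161417109 (715 bp, 2.85-fold), then chr1:161418671-161419015 (3.12-fold) and chr1:161421373-161421587 (2.85-fold). After a gap of 10081 bp came chr1:161431669-161431934, the lowest at 2.53-fold. The cluster closed with chr1:161439049-161439419 (3.11-fold) and chr1:161441211-161441318 (3.64-fold), and the last peak, chr1:161476127-161476611, stood apart with 3.90. Their median of 3.12 exceeded only 2.25% of the codanin-1 list, as in the 5S interval, where the median of 2.97 exceeded 1.62%.

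GATA1 peaks of the long-arm tRNA interval had folds from 3.30 to 4.11, a median of 3.75 and a median width of 232 bp (155 to 345). The highest fold was that of the first peak of the cluster, chr1:161410626-161410769 (4.11), and the highest −log10 q that of chr1:161425051-161425205 (2.29). The widest, chr1:161411415-161412354 at 940 bp, contained the codanin-1 peak of highest fold. One GATA1 peak lay outside the cluster, at chr1:161576446-161576653 (3.79-fold).

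Overlap in the long-arm tRNA interval was found for 3 of 9 peaks of codanin-1 (33.3%, 7.49 to 70.1) and 3 of 17 of GATA1 (17.6%, 3.80 to 43.4). These ranges contain the GATA1 list's 20.2%, and for codanin-1 the lower bound is just above 6.60%. The first shared site was the 186 bp codanin-1 peak chr1:161411497-161411682 already named. At the second, chr1:161439049-161439419 and chr1:161439048-161439392 had 344 bp in common, and at the third, chr1:161431669-161431934 and chr1:161431144-161431670 had 2 bp. Of the 14 GATA1 peaks without overlap, 6 lay within 1 kb of a codanin-1 peak. With overlaps counted, 52.9% of the interval's GATA1 peaks lay within 1 kb, against 35.7% of the list. The part that crowding in 1 cluster has in this closeness was not tested. Within the clusters, 3 of 7 codanin-1 peaks overlapped here and 23 of 23 in the 5S cluster.

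Peaks of the short-arm U1 and tRNA interval were spread more widely and crowded in the middle. The largest cluster, chr1:16908085-17077229, spanned 169 kb and held 34 of 86 peaks of codanin-1 and 28 of 50 of GATA1. Its fullest 50 kb bin, 16950001 to 17000000, had 15 codanin-1 and 17 GATA1 peaks, or 17.4% and 34.0% of the interval's peaks. In the whole genome 27 bins had more codanin-1 peaks and 34 had more GATA1 peaks. Upstream the lists thinned unevenly: codanin-1 had no peak from 16545687 to 16731091, and GATA1 had none from 16072484 to 16368243.

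Codanin-1 peaks of the short-arm interval had a median width of 264 bp (178 to 317) and a median fold of 3.86 (range 2.55 to 4.81). The median fold was 3.60 within the largest cluster and 3.94 beside it, while the median −log10 q was 1.86 within and 1.61 beside it. The peak of highest fold, chr1:16394177-16394304 (4.81), stood outside the cluster, and that of highest −log10 q, chr1:17064840-17064940 (3.26), had the minimum width of 101 bp. The widest, chr1:16956970-16958137, measured 1168 bp. GATA1 peaks had a median width of 164.5 bp (102 to 229) and a median fold of 4.01 (3.46 to 5.10). The GATA1 peak with both the highest fold (5.10) and the highest −log10 q (2.64) was chr1:17241077-17241178, outside the cluster. The widest GATA1 peak, chr1:16956919-16957710 at 792 bp, shared 741 bp with the widest codanin-1 peak, so both lists were widest at the same site.

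In the short-arm interval 8 of 86 codanin-1 peaks (9.30%, 4.10 to 17.5) and 8 of 50 for GATA1 (16.0%, 7.17 to 29.1) overlapped. Both ranges contain the shares of the whole lists. In the rest of chromosome 1 the shares were 2.17% (1.62 to 2.85) and 8.76% (6.57 to 11.4). Beside these the short-arm range lay above for codanin-1, while for GATA1 the ranges met. Within the largest cluster 7 of 34 codanin-1 peaks overlapped, and outside it 1 of 52. Without the fullest bin the shares were 2 of 71 (2.82%) and 2 of 33 (6.06%). The sites of highest codanin-1 fold were chr1:16954499-16955102 (4.01-fold, with GATA1 at 3.75), chr1:16955916-16956496 (3.94-fold, GATA1 4.17) and chr1:16974299-16974597 (3.86-fold, GATA1 4.18), all in that bin. Of the interval's 42 GATA1 peaks without overlap, 12 were within 1 kb of a codanin-1 peak. With overlaps counted, 40.0% of its GATA1 peaks were within 1 kb, against 35.7% of the list.

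The duplicated interval was the longest and the least crowded. Codanin-1 peaks occupied 55 of 133 bins of 50 kb and GATA1 peaks 13. The median distance between neighbouring midpoints was 23.7 kb for codanin-1 and 32.3 kb for GATA1, against 1.29 and 1.39 kb in the 5S interval. The GATA1 list had no peak from 145277473 to 147552526. Assembly gaps, in which no peak can lie, were not left out of these lengths.

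GATA1 peaks of the duplicated interval stood mostly at its centromeric end. The first 500 kb, a division made after seeing the data, held 14 of the 24 GATA1 peaks and, of 96 codanin-1 peaks, 18. The densities there were 16.8 and 7.74 times the list means. In the remaining 6.15 Mb the GATA1 density was 0.974 times the mean, from 10 peaks, and the codanin-1 density was 2.73 times, from 78. Every overlap of the interval lay in the first 500 kb: 5 codanin-1 and 6 GATA1 peaks. In the remainder 0 of 78 codanin-1 peaks overlapped, which allows up to 3.85%, and 0 of 10 GATA1 peaks, which allows up to 30.0%. Over the whole interval the shares were 5.21% for codanin-1 (1.71 to 11.7) and 25.0% for GATA1 (9.77 to 46.7), both ranges containing the shares of the full lists. The codanin-1 range also contains the 2.17% of the rest of chromosome 1. The GATA1 range begins above the 8.76% found there but meets its range (6.57 to 11.4).

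One small cluster, chr1:143262210-143291055 (28.8 kb), held the peak of highest −log10 q in both lists among all 4 intervals. Its 7 codanin-1 and 8 GATA1 peaks shared 59.7% of the codanin-1 and 52.1% of the GATA1 bases. The GATA1 peak chr1:143278738-143279985 had a −log10 q of 8.07 at a fold of 3.50, and chr1:143282575-143284215, the widest GATA1 peak of the interval (1641 bp), had 6.0 at 3.01-fold. The GATA1 peak of highest fold, chr1:143270426-143270764 (4.99), also lay here and met no codanin-1 peak. For codanin-1 the highest −log10 q was 4.91, at chr1:143274956-143275181 (4.29-fold), which overlapped a GATA1 peak of 4.44-fold. The widest codanin-1 peak of all 4 intervals, chr1:143278752-143280577 (1826 bp), had a fold of 2.32 and met 2 GATA1 peaks, those of 3.50-fold and 3.09-fold. The shared site second in codanin-1 fold was chr1:143429608-143429895 (3.44-fold, GATA1 4.36-fold), outside the cluster. Singled out after its values were seen, the narrow GATA1 peak chr1:145277323-145277473 (151 bp) had a −log10 q of 7.56 at a fold of 2.73, with the nearest codanin-1 peak 30257 bp away. Also outside the cluster, the codanin-1 peak of highest fold in any of the intervals, chr1:146551824-146551937, had 6.07 and met no GATA1 peak.

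**Figure D4:**
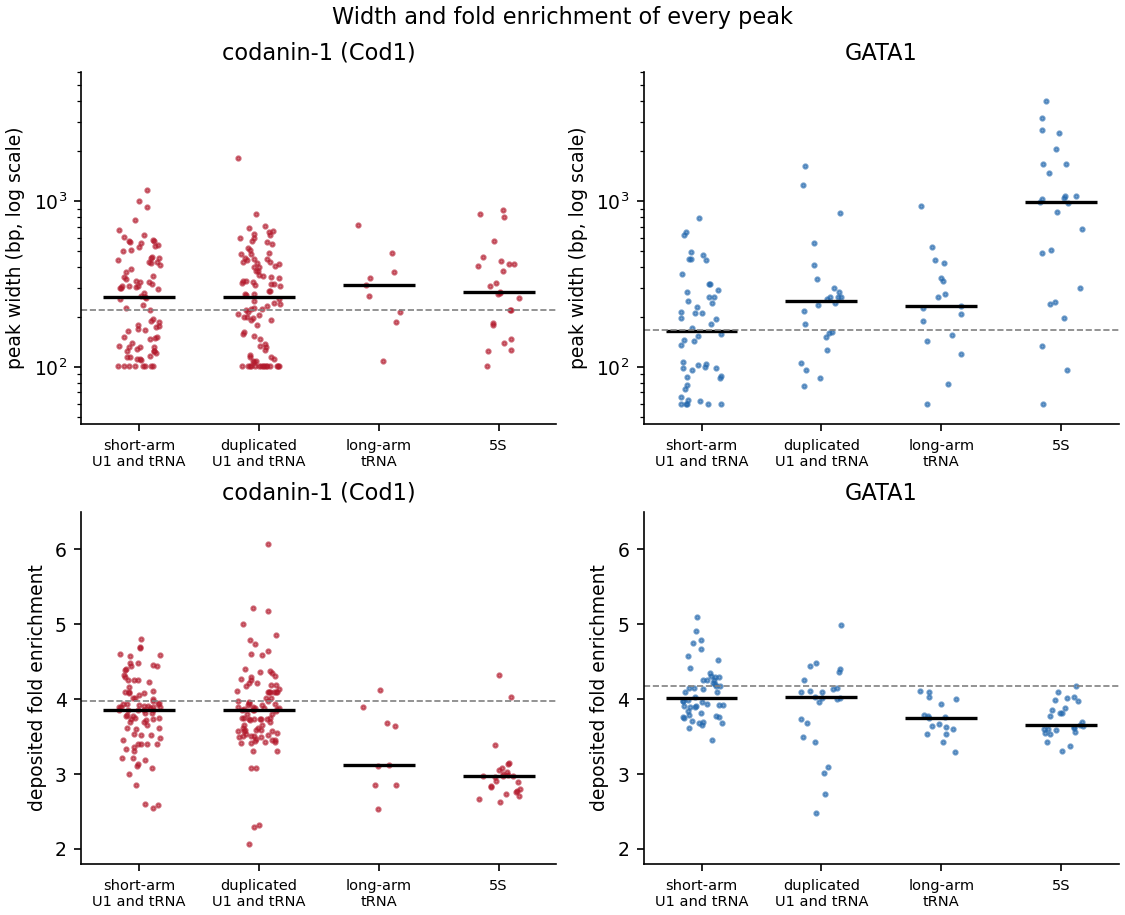
Width (top, log axis in bp) and deposited fold enrichment (bottom) of every peak by interval, codanin-1 left and GATA1 right; black bars are medians and the dashed line is the median of the nuclear list. GATA1 peaks of the 5S interval reach 4006 bp with a median of 991 bp, and codanin-1 folds there have a median of 2.97.

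The intervals were then compared for width and fold. Median GATA1 widths were 164.5, 249, 232 and 991 bp in the short-arm, duplicated, long-arm tRNA and 5S intervals, and the range of the last (489 to 1481) met none of the others. Median codanin-1 widths were 264, 264, 311 and 282 bp, with ranges that overlapped one another. Codanin-1 medians of fold were 3.86 in the short-arm and duplicated intervals and 3.12 and 2.97 in the long-arm tRNA and 5S intervals, while GATA1 medians lay between 3.65 and 4.02.

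**Figure D5:**
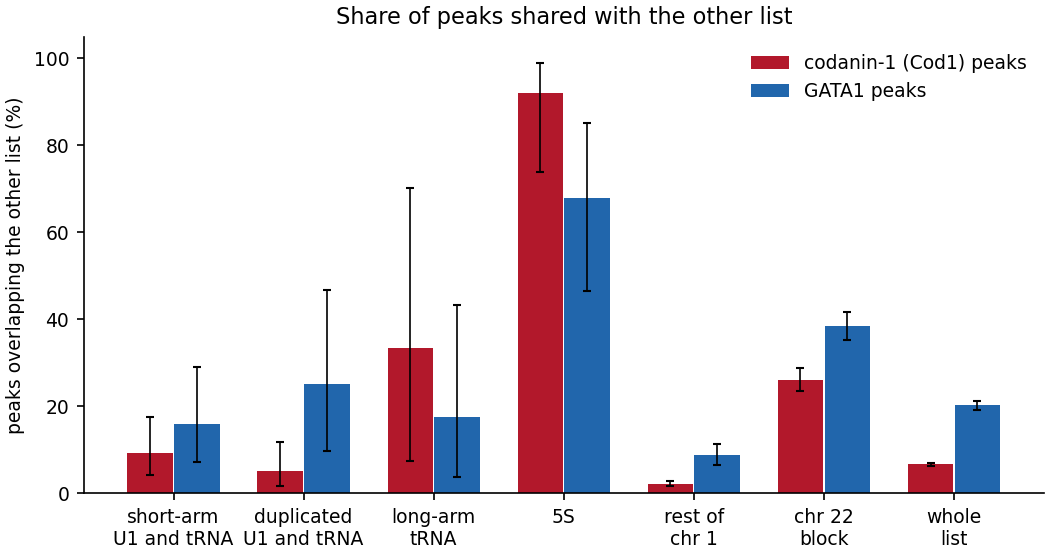
Percent of peaks of each list that share at least 1 bp with a peak of the other list, with exact binomial 95% bars, in the 4 intervals, the rest of chromosome 1, a block of chromosome 22 and the whole lists. The 5S interval, at 92.0% and 68.0%, stands above every other bar.

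The 5S interval was also set beside the block of chromosome 22 from 18 to 24 Mb, a crowded stretch of both lists. Copy number, which may differ between these regions in K562, was not examined. That block had more peaks per Mb than the 5S interval in both lists (178 against 114 for codanin-1 and 147 against 114 for GATA1). Its overlap was lower, at 26.1% for codanin-1 (23.5 to 28.9) and 38.4% for GATA1 (35.2 to 41.7), and neither range met that of the 5S interval. These ranges treat peaks as independent, whereas the 25 GATA1 peaks of the 5S interval merge into 1 region within 1 kb. They therefore do not settle the comparison. Its GATA1 peaks covered 3.98% of its length, against 13.3% of the 5S interval, and had a median width of 208 bp. In the rest of chromosome 1 the shares were 2.17% (1.62 to 2.85) and 8.76% (6.57 to 11.4).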

How the data were processed

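Chromatin of K562 cells (fixed for 10 minutes in 1% formaldehyde, 18 sonication cycles) was precipitated and sequenced, per the labels' protocols. BWA, MACS2 and hg19 appear in the submitters' processing notes with no version or role. Not given in the sources used here are the control library, the calling threshold, pooling, and how reads that map to several copies were treated. The fold enrichment (a ratio), the −log10 p and the −log10 q of each peak are the authors' deposited values, and the deposited score column was not used. The files give no read counts, so depth is unknown and fold was compared within a list only.

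Positions were written from 1. Mean density is peaks on nuclear chromosomes over the summed positions of each chromosome's last peak (3090 Mb, gaps included). Density carries exact Poisson, shares Clopper-Pearson and medians order-statistic intervals. Where 0 peaks overlapped, the share said to be allowed is instead an approximate limit, 3 over the number of peaks. Overlap was at least 1 bp. The counting functions were tested on simulated data. Named peaks are, per interval and list, those of highest fold, width and −log10 q, every peak of a list with 10 or fewer, the fullest 50 kb bin, and the 3 shared sites of highest codanin-1 fold. The intervals and this rule were chosen with earlier results of these data known. Alternatives were a −log10 q of at least 2, merging within 1 kb, other overlap and membership rules and, added after seeing the data, leaving out the fullest bin. Python 3.11.15, numpy 2.4.6, scipy 1.17.1 and pandas 2.3.3 were used.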

Additional observations from a re-analysis of the deposited data

How the results depend on the processing

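Each result was the density, median width or overlap share of one list in one interval, and an alternative counted as a move when its value left the 95% counting interval of the result. Of 88 values under alternatives 44 moved, and counting any peak with a base inside the interval moved none. With −log10 q from 2 upward (22.9% of codanin-1 and 27.0% of GATA1 peaks) codanin-1 density was 17.5 times its mean in the short-arm interval and 4.27 in the 5S interval (1 peak, below the 4.70 of the long-arm tRNA interval), and GATA1 density 10.4, 11.1 and 212 in the short-arm, long-arm tRNA and 5S intervals. Median widths became 175 and 137 bp for codanin-1 in the short-arm and duplicated intervals and 447 bp for GATA1 in the duplicated interval. Overlap shares became 0 of 28 and 0 of 7 in the short-arm interval (codanin-1, then GATA1, allowing 10.7% and 42.9%), 14.3% and 50% in the duplicated interval, 0 of 2 and 0 of 2 in the long-arm tRNA interval (too few to set a limit), and 100% (1 of 1) and 4.76% (1 of 21) in the 5S interval, beside 6.21% and 16.1% of the whole lists, so the 5S GATA1 share turned from above to below that of its list.

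After merging within 1 kb, 5S density was 12.4 times the mean for codanin-1 and 3.47 for GATA1, so the 5S interval ranked below the long-arm tRNA (22.9) and short-arm (17.3) intervals for GATA1. The 25 GATA1 peaks of the 5S interval became 1 region of 38300 bp with an overlap share of 100%. Median widths became 826 bp for 5S codanin-1 peaks and 230 and 360 bp for GATA1 in the short-arm and long-arm tRNA intervals. An overlap of 0.5 of both lengths gave 2.33% and 4.00% in the short-arm and 12.0% and 12.0% in the 5S interval, where 17 of 25 codanin-1 peaks lay wholly inside a GATA1 peak, and the cause of the short-arm fall was not tested. Over the whole lists it gave 2.07% and 5.77%. Peaks within 1 kb gave 19.8% and 40.0% in the short-arm interval, 52.9% for long-arm tRNA GATA1 and 92.0% for 5S GATA1, beside 10.5% and 35.7% of the whole lists. Without the fullest 50 kb bin, density was 1.23 (codanin-1) and 1.71 (GATA1) times the mean in the long-arm tRNA interval, 7.59 and 10.6 in the 5S interval, and 13.6 for short-arm GATA1. The shares were 2.82% and 6.06% (short-arm), 1.14% and 6.25% (duplicated), 0 of 2 and 0 of 1 (long-arm tRNA), and 66.7% (4 of 6) and 100% (3 of 3) in the 5S interval, whose cluster that bin cuts. No paired analysis was possible because there is 1 library per antibody, and leaving out a library was likewise impossible.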
